A study of Mus musculus with 60 samples.

Results

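Serpina3n, Serpina3m, Serpina3k, Itih1, Itih2, Itih3, Itih4, Serpina1e and Mug1 are 9 mouse genes for protease inhibitors and inhibitor-related proteins of the blood plasma. They were chosen by name. Of these 9 symbols, 6 had a probe set annotated to them alone, and the brightest such probe set, by its mean over the 60 arrays, stands for the gene. The 6 measured genes are Serpina3n, Itih1, Itih2, Itih3, Itih4 and Mug1, out of 18194 genes with a probe set of their own. All 6 passed the filter on low values, as did 14513 genes in all, and each lay above the 40th percentile of its array on all 60 arrays. The name Serpina1e appeared only on a probe set annotated to Serpina1e, Serpina1c and Serpina1b together, so its values belong to these genes jointly. A further probe set was annotated to Mug1, Mug2 and Mug-ps1. Serpina3m and Serpina3k were not analysed here.

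The series followed primary hepatocytes of male C57BL/6N mice aged 8 to 12 weeks, with 60 Affymetrix Mouse430_2 arrays in 29 groups. All groups shared the same culture: cells attached for 4 h on collagen I in medium with serum and insulin, then stayed 24 h without serum, with 100 nM dexamethasone throughout. The 4 arms were unstimulated cells, 40 ng/ml recombinant mouse HGF, 40 ng/ml recombinant human IL-6, and both factors together, sampled at 7 hours from 0.5 to 32 h with 2 arrays per arm and hour, beside 4 unstimulated arrays at 0 h. An experiment used cells of 1 animal or a pool of up to 3, from preparations with over 70% vital cells, and which arrays share an animal is not given, so the p-values reflect array-to-array spread that may be purely technical. Every comparison with unstimulated cells used the same unstimulated arrays, so the 3 stimuli share their controls.

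Plasma is rich in proteins that bind and inactivate proteases, and hepatocytes secrete most of them. Serpins trap a serine protease by offering a loop as bait, and murinoglobulins close around a protease after it has cut them. The inter-alpha-trypsin inhibitor family joins heavy chains, the Itih proteins, to the light chain bikunin, which holds the inhibitory domains and comes from the gene Ambp. In inflammation IL-6 acts on hepatocytes through STAT3 and changes the output of such plasma proteins, the acute phase response, to which glucocorticoids contribute. HGF is the ligand of the receptor Met and drives hepatocyte growth.

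Promoter sequences are shown for Serpina3n, the serpin with a probe set of its own, and for Itih4, Itih3 and Itih1, which lie side by side in this order on chromosome 14 and whose signals took different courses. They are the 250 bases before the transcription start from RefSeq (GRCm38.p6), 5′ to 3′ on the gene's strand, and the RefSeq table held a promoter for 7 of the 9 genes. Capitals mark matches, on either strand, to 4 motifs: the STAT motif TTCNNNGAA, the core CTGGGAA of IL-6 response elements, the C/EBP motif TTGNNNAA, and a pair of glucocorticoid receptor half-sites, GNACA and TGTNC, with 3 bases between them. The windows are chr12:104406458-104406707 on the plus strand for Serpina3n, chr14:30886226-30886475 on the plus strand for Itih4, chr14:30923588-30923837 on the minus strand for Itih3 and chr14:30943290-30943539 on the minus strand for Itih1.
Serpina3n: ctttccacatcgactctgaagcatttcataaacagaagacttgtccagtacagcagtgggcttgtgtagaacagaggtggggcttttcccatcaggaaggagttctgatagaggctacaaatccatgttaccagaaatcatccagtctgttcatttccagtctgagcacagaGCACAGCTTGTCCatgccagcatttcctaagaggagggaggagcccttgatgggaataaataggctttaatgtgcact
Itih4: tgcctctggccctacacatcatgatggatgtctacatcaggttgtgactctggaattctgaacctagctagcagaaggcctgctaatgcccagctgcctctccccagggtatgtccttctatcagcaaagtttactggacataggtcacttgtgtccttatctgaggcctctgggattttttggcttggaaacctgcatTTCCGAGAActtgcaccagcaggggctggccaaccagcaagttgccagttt
Itih3: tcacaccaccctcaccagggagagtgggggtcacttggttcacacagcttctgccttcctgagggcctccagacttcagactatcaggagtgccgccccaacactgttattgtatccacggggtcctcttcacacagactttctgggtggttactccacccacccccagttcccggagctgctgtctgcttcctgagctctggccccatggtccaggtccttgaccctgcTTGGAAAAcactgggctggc
Itih1: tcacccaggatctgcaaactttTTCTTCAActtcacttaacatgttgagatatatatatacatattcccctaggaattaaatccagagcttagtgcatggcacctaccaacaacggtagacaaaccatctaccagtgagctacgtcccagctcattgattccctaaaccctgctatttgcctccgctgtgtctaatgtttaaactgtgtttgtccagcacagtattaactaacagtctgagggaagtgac
The Serpina3n window held 1 match to the paired glucocorticoid half-sites, at bases -78 to -66 from the start, a motif found in 0.4% of 32851 RefSeq promoters of this length. The Itih4 window held 1 STAT match at -51 to -43, found in 7.0% of the promoters. The capitals in Itih3 (-20 to -13) and Itih1 (-228 to -221) are C/EBP matches, a motif present in 33.3% of the promoters. The core CTGGGAA, present in 9.1%, was in none of these 4 windows. A match describes letters and not a bound site.

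Levels are log2 intensities, on which a difference of 1 is a doubling of signal, and SD is the spread between arrays. Differences are log2 differences at matched hours with the standard error (SE) of a linear model over all arrays. A gene passed a comparison when the adjusted p of an F-test over the 7 hours was under 0.05, and "rose" or "fell" gives the sign at the hour of its largest difference. Control probe sets split the arrays: the 3′ minus 5′ signal of the spiked dap RNA ranged from 1.22 to 1.48 where unstimulated cells of 0 to 4 h were hybridised (10 arrays) and from 2.62 to 3.72 elsewhere, so differences from unstimulated cells up to 4 h, and those between 0 h and the hours from 8 h on, cannot be told apart from this split. The hybridisation control bioB read 8.04 to 8.31 on unstimulated arrays from 8 h on and 5.21 to 6.98 on stimulated ones, and its part in the results was not tested. One IL-6 array at 24 h, replicate 1, had the highest 3′ minus 5′ signal for dap (3.72) and for Gapdh (0.75). Of 10 hepatocyte markers, 9 had a probe set and 8 were above the 40th percentile on all 60 arrays. Their mean fell from 11.33 at 0 h to 9.74 in unstimulated, 9.49 in HGF, 9.44 in IL-6 and 9.11 in doubly treated cells at 32 h. Single markers differed in size: without stimulus albumin went from 14.43 to 14.24, Apoa1 from 14.04 to 11.51, Cps1 from 11.75 to 8.02 and Cyp2e1 from 12.03 to 7.75. Ass1 read 3.97 and 3.96, below all array medians. Markers of other cells were also detected: on all arrays 7 of 9 macrophage markers (array means 5.15 to 5.83), 7 of 8 endothelial (5.47 to 6.24), 3 of 9 stellate (4.59 to 5.11), 3 of 5 cholangiocyte (5.15 to 5.86) and 1 of 7 leukocyte markers (3.88 to 4.29) were above the percentile. In these bulk samples fewer hepatocytes and less RNA per hepatocyte cannot be told apart.

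In unstimulated culture 5 of the 6 genes fell over 32 h and Itih2 rose. All 6 passed this test, which 75.0% of the 14513 genes passed, 40.4% upward and 34.6% downward, and all 6 passed over 8 to 32 h (all genes 75.2%). Each of these later hours was compared with 0 h across the split in the dap signal, which this restriction does not avoid. Culture time and the split cannot be told apart in these comparisons with 0 h. Unstimulated arrays from 8 to 32 h lay on the same side of the split (dap signal 2.63 to 2.89). From 8 to 32 h their means went from 10.72 to 8.03 for Serpina3n, 10.46 to 8.29 for Mug1 and 9.09 to 7.53 for Itih1. Itih3 went from 12.07 to 10.77, Itih4 from 12.41 to 11.83 and Itih2 from 11.15 to 11.47. Changes between these later hours were not tested. Against 0 h the largest fall was that of Serpina3n (-3.63 at 32 h, SE 0.09, adjusted p = 9.22e-36), a 12.4-fold loss of signal, followed by Mug1, Itih1, Itih3 and Itih4. The median of the 6 differences was -1.69, against -0.13 over all genes. The hepatocyte markers fell over the same hours, and their part in these falls was not tested.

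**Figure D1:**
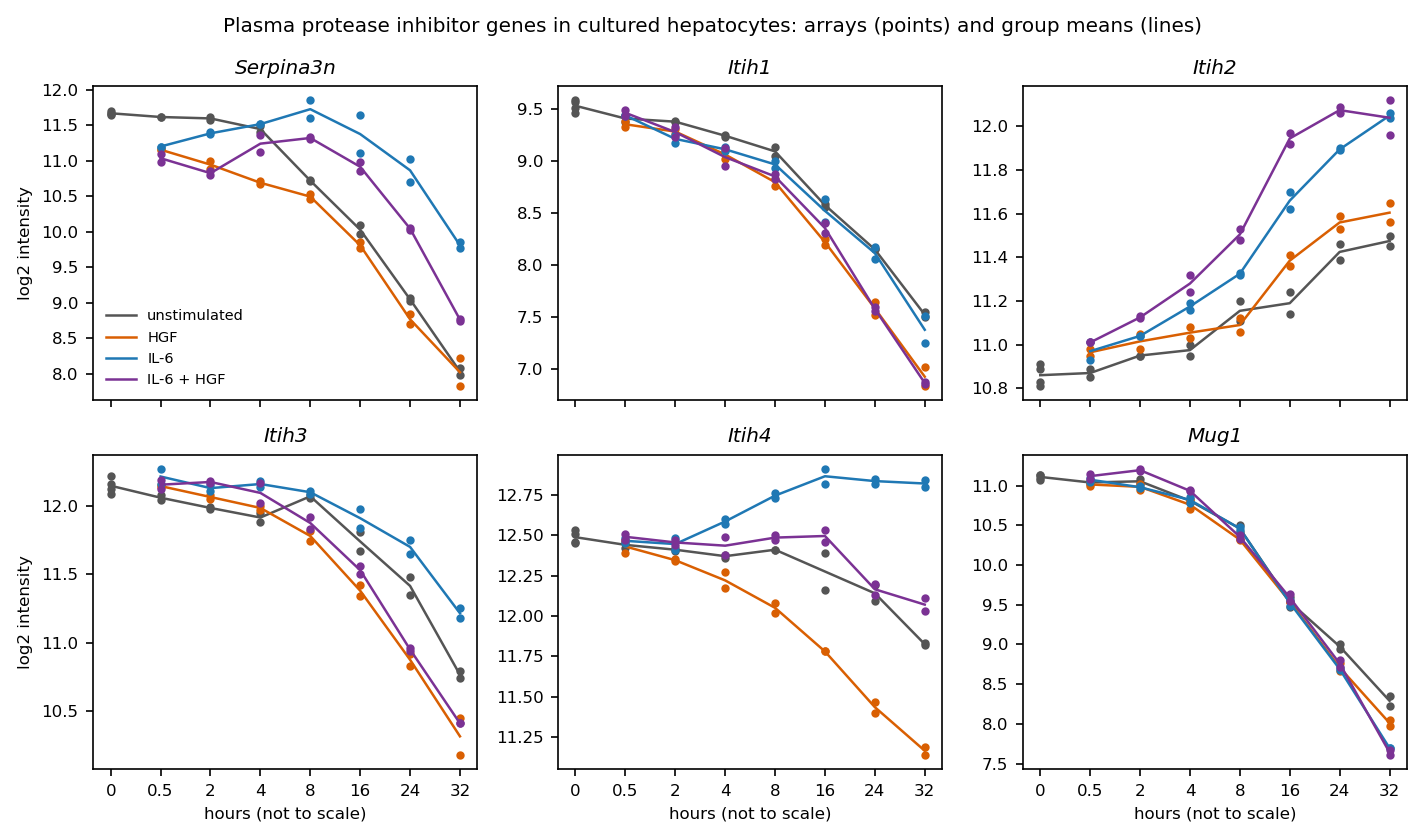
Log2 intensity of the 6 genes (vertical axes, each panel with its own range) against hours after stimulation (horizontal axis, not to scale), with 1 point per array and lines through group means of the 4 arms. Serpina3n of unstimulated cells falls from about 11.67 to 8.03, Itih2 climbs in every arm, and Itih4 stays above 12.40 in IL-6 cells at every hour.

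Serpina3n encodes a secreted serpin related to human alpha-1-antichymotrypsin, an inhibitor of chymotrypsin-like proteases such as cathepsin G. The 4 arrays at 0 h read 11.66, 11.70, 11.64 and 11.67. Unstimulated cells then gave 11.62 and 11.61 at 0.5 h, 11.62 and 11.57 at 2 h, 11.49 and 11.40 at 4 h, 10.71 and 10.73 at 8 h, 10.09 and 9.97 at 16 h, 9.03 and 9.07 at 24 h, and 8.09 and 7.98 at 32 h. The signal stayed near its start for 4 h and dropped from 8 h on, with replicates close together. IL-6 cells gave 11.20 and 11.20 at 0.5 h, 11.37 and 11.40 at 2 h, 11.52 and 11.51 at 4 h, 11.60 and 11.85 at 8 h, 11.11 and 11.64 at 16 h, 10.70 and 11.03 at 24 h, and 9.85 and 9.77 at 32 h. From 8 h on every IL-6 array lay above both unstimulated arrays of its hour, and the loss of signal came later without being absent.

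The log2 difference between IL-6 and unstimulated cells was 1.00 at 8 h, 1.34 at 16 h, 1.82 at 24 h and 1.77 at 32 h, each with an SE of 0.10. This SE rests on the spread over all groups. The IL-6 arrays themselves had an SD of 0.18 at 8 h, 0.38 at 16 h, 0.23 at 24 h and 0.06 at 32 h. At its largest the difference was 3.53-fold (adjusted p = 9.04e-26 for the F-test, rank 67 of the rows tested). It was 1.99 without IL-6 replicate 1 at 24 h, the array with the high 3′ minus 5′ signals. From 0 to 32 h the mean changed by -1.86 in IL-6 cells and by -3.64 in unstimulated cells. Before 8 h the order differed. At 0.5 h all 3 stimulated arms lay below unstimulated cells, by 0.42 with IL-6, 0.46 with HGF and 0.58 with both, against unstimulated arrays that the dap signal sets apart. From 4 to 8 h unstimulated Serpina3n moved by -0.75 relative to the stimulated arms, where the median size of this step over all genes was 0.15 and its 95th percentile 0.50.

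HGF cells gave Serpina3n readings of 11.15 and 11.16 at 0.5 h, 11 and 10.89 at 2 h, 10.67 and 10.71 at 4 h, 10.53 and 10.46 at 8 h, 9.77 and 9.85 at 16 h, 8.84 and 8.70 at 24 h, and 8.22 and 7.83 at 32 h. They lay below the unstimulated arrays up to 24 h and straddled them at 32 h. Serpina3n fell with HGF by 0.75 at 4 h (SE 0.10, adjusted p = 4.16e-11), within the hours of the split. From 8 to 24 h the difference was between -0.28 and -0.22, with an adjusted p of 0.00793 for the F-test over 8 to 32 h.

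Cells with both factors gave Serpina3n readings of 10.98 and 11.09 at 0.5 h, 10.85 and 10.80 at 2 h, 11.36 and 11.12 at 4 h, 11.31 and 11.33 at 8 h, 10.85 and 10.98 at 16 h, 10.03 and 10.06 at 24 h, and 8.75 and 8.78 at 32 h. From 8 h on these arrays lay above the unstimulated and below the IL-6 arrays. The rise over unstimulated cells was 1.00 at 24 h (SE 0.10, adjusted p = 2.32e-18), a 2.0-fold difference, and 0.73 at 32 h. Against IL-6 alone the combination was lower by 1.05 at 32 h (SE 0.10), where the arrays did not overlap (adjusted p = 1.01e-14).

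**Figure D2:**
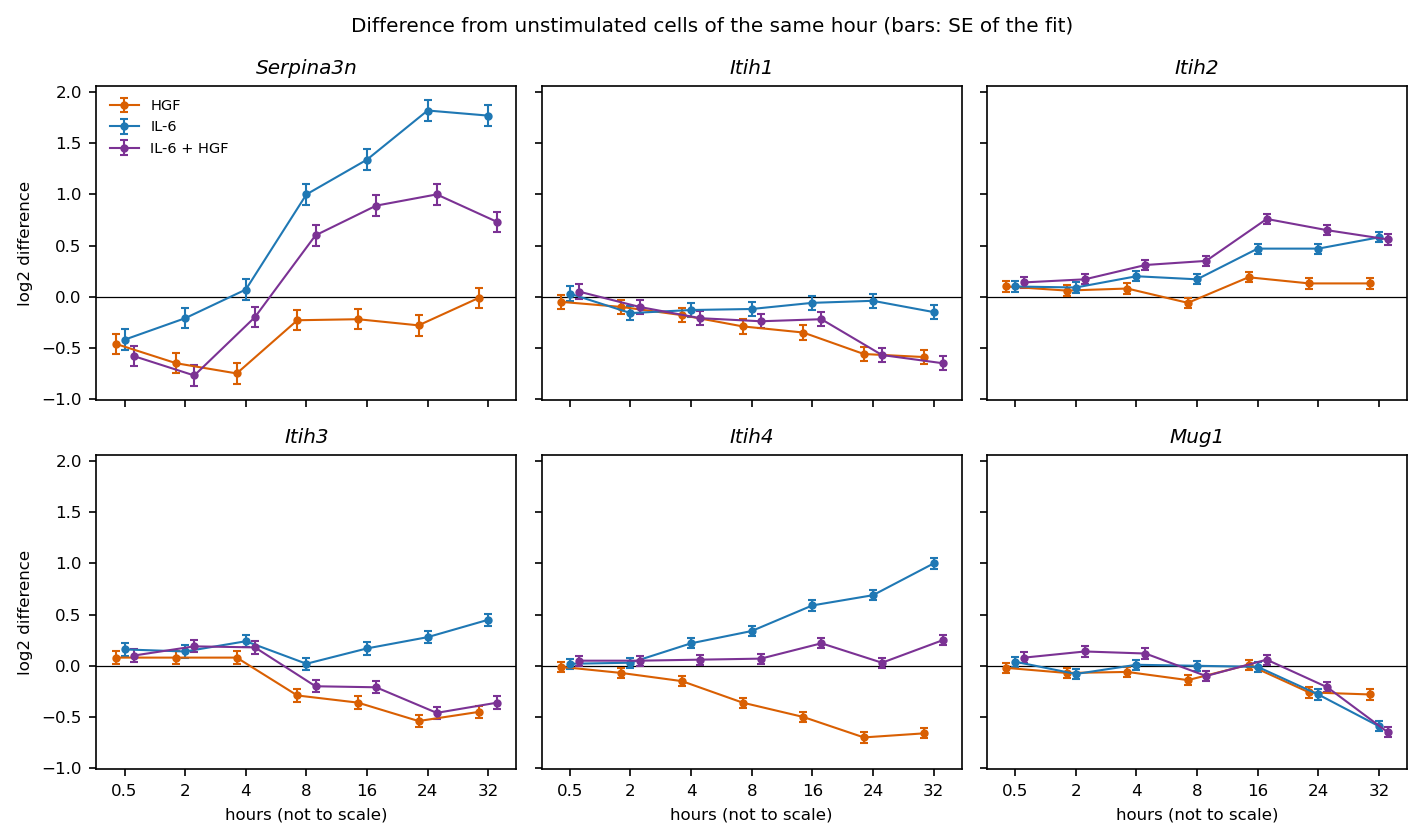
Log2 difference from unstimulated cells of the same hour (vertical axis, shared by all panels) for HGF, IL-6 and both factors, with bars for the SE of the fit, against hours (horizontal axis, not to scale). Serpina3n reaches 1.82 with IL-6, Itih4 ends at 1.00 with IL-6 and -0.66 with HGF, and Itih1 lies between -0.16 and 0.03 with IL-6 at every hour.

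The 4 Itih genes did not move alike, though differences between genes were not tested. The heavy chains of Itih1, Itih2 and Itih3 are known to pass from bikunin to hyaluronan in the matrix, while Itih4 carries no bikunin and is known as an acute phase protein in human and pig plasma. Itih4 rose with IL-6 and fell with HGF. Itih3 rose less with IL-6 and fell with HGF. Itih1 fell with HGF and moved little with IL-6. Itih2 rose with each stimulus.

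Itih4 arrays at 0 h read 12.45, 12.46, 12.53 and 12.51. Unstimulated cells gave 12.42 and 12.46 at 0.5 h, 12.42 and 12.40 at 2 h, 12.38 and 12.36 at 4 h, 12.41 and 12.41 at 8 h, 12.39 and 12.16 at 16 h, 12.09 and 12.19 at 24 h, and 11.83 and 11.82 at 32 h. IL-6 cells gave 12.48 and 12.45 at 0.5 h, 12.41 and 12.48 at 2 h, 12.60 and 12.57 at 4 h, 12.76 and 12.73 at 8 h, 12.82 and 12.91 at 16 h, 12.85 and 12.82 at 24 h, and 12.80 and 12.84 at 32 h. At the 5 hours from 4 h on, both IL-6 arrays lay above all 4 arrays of 0 h, from which the dap signal sets them apart. HGF cells gave 12.47 and 12.39 at 0.5 h, 12.34 and 12.35 at 2 h, 12.17 and 12.27 at 4 h, 12.02 and 12.08 at 8 h, 11.78 and 11.78 at 16 h, 11.40 and 11.47 at 24 h, and 11.19 and 11.14 at 32 h. These arrays lay below the unstimulated ones at every hour from 2 h on. Cells with both gave 12.51 and 12.47 at 0.5 h, 12.47 and 12.44 at 2 h, 12.49 and 12.38 at 4 h, 12.50 and 12.47 at 8 h, 12.46 and 12.53 at 16 h, 12.13 and 12.20 at 24 h, and 12.03 and 12.11 at 32 h. They lay above the unstimulated arrays or, at 4 and 24 h, overlapped them.

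Itih4 was the heavy chain with the largest response to IL-6, 1.00 at 32 h (SE 0.05, adjusted p = 8.09e-25), a 2.0-fold difference. With HGF it fell by 0.70 at 24 h (SE 0.05, adjusted p = 1.15e-21). IL-6 and HGF cells differed by 1.66 at 32 h (SE 0.05, adjusted p = 3.45e-35). By the p of the F-test, not by size, Itih4 ranked 15 among the rows tested in that comparison. With both factors the difference from unstimulated cells was 0.25 at 32 h (SE 0.05, adjusted p = 1.01e-05). Adding HGF to IL-6 lowered Itih4 by 0.75 at 32 h, and adding IL-6 to HGF raised it by 0.91.

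Itih3 arrays at 0 h read 12.16, 12.12, 12.22 and 12.09. At 24 h unstimulated cells gave 11.35 and 11.48, HGF cells 10.92 and 10.83, IL-6 cells 11.75 and 11.65, and cells with both 10.96 and 10.94. At 32 h the same arms gave 10.74 and 10.79, 10.45 and 10.18, 11.25 and 11.18, and 10.41 and 10.41. At both hours IL-6 arrays were the highest, HGF arrays and doubly treated arrays were the lowest, and unstimulated arrays lay between them without overlap. Itih3 rose with IL-6 by 0.45 at 32 h (SE 0.06, adjusted p = 9.63e-10) and fell with HGF by 0.54 at 24 h (SE 0.06, adjusted p = 1.05e-13). With both it fell by 0.46 at 24 h (adjusted p = 2.76e-11). Adding IL-6 to HGF raised Itih3 by 0.15 at most, at 16 h (SE 0.06, adjusted p = 0.04, and 0.0512 over 8 to 32 h). The unstimulated step of Itih3 from 4 to 8 h was 0.32 above that of the stimulated arms.

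Itih1 arrays at 0 h read 9.46, 9.56, 9.58 and 9.51. At 24 h unstimulated cells gave 8.15 and 8.15, HGF cells 7.65 and 7.52, IL-6 cells 8.06 and 8.17, and cells with both 7.60 and 7.56. At 32 h the same arms gave 7.50 and 7.55, 7.02 and 6.84, 7.51 and 7.25, and 6.86 and 6.88. At both hours the 4 arrays with HGF lay below the 4 arrays without it, and IL-6 arrays overlapped the unstimulated ones. Itih1 fell with HGF by 0.59 at 32 h (SE 0.07, adjusted p = 3.81e-13) and with both factors by 0.65 (adjusted p = 3.53e-13). The difference with IL-6 alone was -0.16 at 2 h (SE 0.07, adjusted p = 0.0467), inside the hours of the split, and the adjusted p was 0.16 over 8 to 32 h. Between the combination and HGF alone Itih1 did not pass the test (0.13 at 16 h, SE 0.07, adjusted p = 0.523).

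Itih2 was the one gene of the set whose signal climbed in culture. Its arrays at 0 h read 10.83, 10.89, 10.91 and 10.81, and unstimulated cells at 32 h read 11.50 and 11.45, a rise of 0.61 (SE 0.04, adjusted p = 4.54e-20). At 16 h unstimulated cells gave 11.24 and 11.14, HGF cells 11.36 and 11.41, IL-6 cells 11.70 and 11.62, and cells with both 11.97 and 11.92. At 32 h the arms gave 11.50 and 11.45, 11.65 and 11.56, 12.04 and 12.06, and 12.12 and 11.96. At 16 h the 4 arms were in that order without overlap, and at 32 h IL-6 arrays lay within the range of the doubly treated ones. Itih2 rose with IL-6 by 0.58 at 32 h (SE 0.05, adjusted p = 9.87e-19), with HGF by 0.19 at 16 h (SE 0.05, adjusted p = 5.37e-05) and with both by 0.76 at 16 h (SE 0.05, adjusted p = 3.68e-24). The combination exceeded IL-6 alone by 0.29 at 16 h (SE 0.05, adjusted p = 3.08e-07).

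Mug1 encodes murinoglobulin 1, a monomeric rodent relative of alpha-2-macroglobulin. Its arrays at 0 h read 11.13, 11.10, 11.14 and 11.07. At 16 h unstimulated cells gave 9.47 and 9.60, HGF cells 9.54 and 9.54, IL-6 cells 9.49 and 9.56, and cells with both 9.63 and 9.55. At 16 h no arm stood apart from the others. At 32 h the arms gave 8.35 and 8.23, 8.05 and 7.97, 7.70 and 7.69, and 7.67 and 7.61, with unstimulated arrays highest, HGF next and both arms with IL-6 lowest. The fall in unstimulated culture was 2.82 (SE 0.04, adjusted p = 2.92e-43), 7.06-fold. By the p of the F-test, not by size, Mug1 ranked 2 among all rows tested.

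Against unstimulated cells Mug1 fell with IL-6 by 0.59 at 32 h (SE 0.05, adjusted p = 1.93e-12), opposite in sign to Serpina3n, Itih4, Itih3 and Itih2. With HGF it fell by 0.28 at 32 h (SE 0.05, adjusted p = 5.35e-07), and with both by 0.65 at 32 h (SE 0.05, adjusted p = 4.98e-14). At 2 h the combination arrays read 11.21 and 11.18 and lay above all 4 arrays of 0 h, from which the dap signal sets them apart. The probe set shared with Mug2 and Mug-ps1 gave 8.02 and 8.02 in unstimulated cells at 32 h, 7.90 and 7.69 with HGF, 7.57 and 7.52 with IL-6, and 7.21 and 7.41 with both. It fell by 0.47 with IL-6 (SE 0.06, adjusted p = 4.12e-08) and by 0.71 with both at 32 h, the same order of arms as Mug1.

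The shared Serpina1 probe set stands for genes of alpha-1-antitrypsin, the inhibitor of neutrophil elastase. It read 10.96 to 11.16 on the arrays of 0 h. At 32 h unstimulated cells gave 9.10 and 8.91, HGF cells 9.32 and 8.69, IL-6 cells 8.84 and 8.76, and cells with both 8.73 and 8.92. At 32 h the HGF and doubly treated arrays overlapped the unstimulated ones, and both IL-6 arrays lay below them, a difference that did not pass (-0.21, SE 0.15, adjusted p = 0.354 at that hour). The signal fell by 2.06 in unstimulated culture (SE 0.13, adjusted p = 2.23e-20). The probe sets annotated to Serpina1b alone and to Serpina1c alone each fell by 0.60 there (SE 0.03), so probe sets that carry these names disagreed in size. Their mean log2 intensities were 13.74 and 13.94, against 10.15 for the shared probe set. The part of this difference in level was not tested. The shared probe set's largest difference with IL-6 was -0.48 at 0.5 h (SE 0.15, adjusted p = 0.0024), while over 8 to 32 h the adjusted p was 0.278 with IL-6, 0.565 with HGF and 0.501 with both. Between 4 and 8 h the unstimulated signal stepped by -0.50 relative to the stimulated arms.

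Counted over the 6 genes, all 6 passed for IL-6 against unstimulated cells, 4 higher and 2 lower, where 55.1% of all genes passed (23.4% higher, 31.7% lower). For HGF all 6 passed, 1 higher and 5 lower, against 62.6% of all genes (29.8% higher, 32.8% lower). For the combination all 6 passed, 3 higher and 3 lower, against 68.0% (31.3% higher, 36.7% lower). The median difference was 0.51 with IL-6, -0.57 with HGF and -0.11 with both, beside -0.10, -0.08 and -0.14 over all genes. A pass was thus common among all genes, and these counts by themselves set the 6 genes apart in no comparison. Over 8 to 32 h alone, 5 of 6 passed for IL-6 (all genes 42.0%), Itih1 being the exception, with 6 for HGF (55.1%) and 6 for both (57.2%).

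IL-6 and HGF cells were compared directly, which leaves out the unstimulated arrays. The bioB control still differed between the stimulated arms at 32 h. It read 6.79 and 6.74 with HGF, 5.58 and 5.68 with IL-6, and 5.42 and 5.21 with both. At 24 h the HGF (5.90 and 5.78) and IL-6 arrays (5.91 and 5.87) overlapped in bioB. Its part in these differences was not tested. All 6 genes passed, against 51.2% of all genes (22.3% higher, 28.9% lower), with 5 higher in IL-6 cells and Mug1 lower. All 6 also passed over 8 to 32 h, against 50.1%. The differences were 2.10 for Serpina3n at 24 h (SE 0.10, adjusted p = 3.44e-28), 0.90 for Itih3 at 32 h, 0.53 for Itih1 at 24 h, 0.44 for Itih2 at 32 h and -0.31 for Mug1 at 32 h. The median was 0.71, against -0.12 over all genes. For Itih1 the IL-6 arrays at 24 h overlapped the unstimulated ones and the HGF arrays lay below both.

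Adding HGF to IL-6 changed all 6 genes, where 44.1% of all genes passed (23.2% higher, 20.9% lower), and 5 of 6 over 8 to 32 h (34.6%). Serpina3n, Itih3, Itih4 and Itih1 were lower, the last by 0.53 at 24 h (SE 0.07, adjusted p = 2.06e-09) and Itih3 by 0.81 at 32 h (SE 0.06, adjusted p = 7.42e-18). Itih2 and Mug1 were higher, Mug1 by 0.22 at 2 h (SE 0.05, adjusted p = 0.00161), with an adjusted p of 0.155 over 8 to 32 h. Adding IL-6 to HGF changed 5 of 6, against 41.6% of all genes (17.7% higher, 23.8% lower), and 4 over 8 to 32 h (37.0%). Serpina3n gained 1.28 at 24 h (adjusted p = 2.88e-19) and Itih2 0.57 at 16 h, while Mug1 lost a further part of its signal (-0.37 at 32 h, adjusted p = 5.6e-08).

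Whether the effects of the 2 factors add up was tested as the interaction, which is the effect of IL-6 in the presence of HGF less its effect in the absence of HGF. Of the 6 genes 4 passed, 2 above and 2 below 0, against 33.6% of all genes (18.9% above, 14.6% below). The same count passed over 8 to 32 h, against 19.7%. For Serpina3n at 32 h, IL-6 alone gave 1.77 and HGF alone -0.01, so that their sum was 1.77, while the combination gave 0.73. The departure was -1.04 (SE 0.14, adjusted p = 1.76e-07 over all hours). At 24 h the sum was 1.54 against 1.00 (departure -0.54, adjusted p = 0.00818 at that hour), and at 8 and 16 h the departures of -0.17 and -0.24 did not pass. At 4 h, within the hours of the split, the departure had the opposite sign (0.48, SE 0.14, adjusted p = 0.0164 at that hour): the sum was -0.68 and the combination gave -0.20. The effect of IL-6 on Serpina3n at 32 h was thus smaller with HGF than without it, at an hour when HGF alone gave -0.01 (SE 0.10).

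Itih3 also fell short of the sum. At 32 h IL-6 gave 0.45 and HGF -0.45, which sum to 0, and the combination gave -0.36 (departure -0.35, SE 0.08, adjusted p = 0.00476). Mug1 departed the other way. At 24 h IL-6 gave -0.28 and HGF -0.26, a sum of -0.55, against -0.21 observed (departure 0.33, SE 0.07, adjusted p = 3.35e-05). On the probe set shared with Mug2 and Mug-ps1 the departure was 0.20 at 24 h (SE 0.08, adjusted p = 0.126 at that hour). At 32 h it was -0.01 there, against 0.22 for Mug1. The shared probe set did not pass the F-test over 8 to 32 h (adjusted p = 0.0606). Itih2 departed by 0.24 at 8 h (SE 0.06, adjusted p = 0.0233), where IL-6 gave 0.17, HGF -0.06 and the combination 0.35. Without a mean-variance trend in the model this Itih2 call was lost.

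Itih4 and Itih1 did not pass the interaction. For Itih4 at 24 h, IL-6 gave 0.69 and HGF -0.70, and the combination gave 0.03, beside a sum of -0.01. Its largest departure was 0.13 at 16 h (SE 0.07, adjusted p = 0.408), and that of Itih1 was 0.19 at 16 h (SE 0.10, adjusted p = 0.221). A missed threshold does not show that the effects add exactly.

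**Figure D3:**
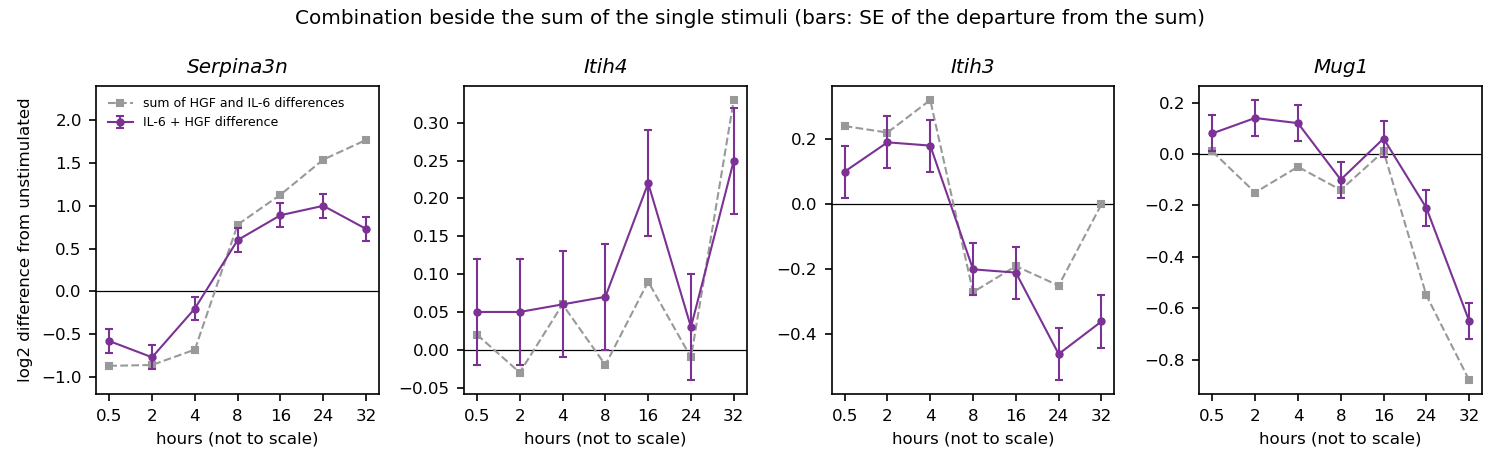
Log2 difference from unstimulated cells (vertical axes, each panel with its own range) for the combination (circles, with the SE of the departure from the sum) and for the sum of the 2 single differences (grey squares) against hours (not to scale). For Serpina3n the combination lies above the sum at 4 h (-0.20 against -0.68) and below it at 32 h (0.73 against 1.77), while for Itih4 at 24 h they stand at 0.03 and -0.01.

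The 6 genes were not alike in how the arms were ordered. Over 28 values, the means of 4 arms at 7 hours less the mean of each hour, Serpina3n correlated with Itih4 (r = 0.86), Itih3 with Itih4 (0.83) and Itih1 with Itih3 (0.79). Itih2 went with Serpina3n (0.67) and not with Itih1 (-0.29), and Mug1 correlated with Serpina3n at -0.39 and with Itih2 at -0.42. All points share arrays and hours, so these are descriptions. By the same measure over all 14513 genes, the profiles most like Serpina3n were Plac8 (0.96) and Lrg1 (0.94), an acute phase glycoprotein gene. Nearest to Itih4 were Palmd (0.97) and Serpina10 (0.97), nearest to Itih3 Cfi (0.93), which encodes complement factor I, and nearest to Itih1 C8b (0.97), which encodes a chain of complement component 8. Itih2 was most like Sec63 (0.97), whose protein helps move proteins into the endoplasmic reticulum, and Mug1 had no profile closer than Gm13889 (0.84).

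Other plasma serpins divided under IL-6. Of 18 listed serpins 12 had a probe set of their own, and with IL-6 6 rose and 6 fell (all genes 23.4% and 31.7%). All 6 rises were largest at 8 h or later, while 4 of the 6 falls were largest at 0.5 or 4 h, within the split. The other 2 were Serpinc1, antithrombin, with -0.52, and Serpinf1 with -0.33, both at 32 h. With HGF all 12 fell (all genes 32.8%), 11 of them most from 8 h on, with a median of -0.66. Among the 12, Serpina6 had a mean log2 intensity of 4.7, below all array medians. Serpina1b passed narrowly with HGF (-0.10 at 24 h, SE 0.04, adjusted p = 0.0488). With both 5 rose and 7 fell (all genes 31.3% and 36.7%), 4 of these falls within the split. Serpina10, the inhibitor of coagulation factor X in its activated form together with protein Z, rose by 2.31 with IL-6 at 32 h (SE 0.06, adjusted p = 1.9e-31). It fell by 1.73 with HGF at 24 h and rose by 1.42 with both. Serpinf2, the plasmin inhibitor alpha-2-antiplasmin, gave 1.67 with IL-6, -0.73 with HGF and 1.13 with both, and like Serpina3n it had lost much of its signal in unstimulated culture (-3.62 at 32 h). Serping1, the inhibitor of complement C1, gave 1.16, -0.71 and 0.64, and Serpina7, thyroxine-binding globulin, gave 1.67, -1.45 and 1.47. The interaction passed for 10 of these 12 serpins, each above 0 at the hour of its largest departure (all genes 18.9%). For 4 of the 10 that hour was 0.5 or 4 h, within the split, and for 6 it was 8 h or later.

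Of 18 other inhibitors 16 were measured, and 7 rose, 5 fell and 4 did not pass with IL-6 (all genes 23.4% higher, 31.7% lower). Timp1, an inhibitor of matrix metalloproteases, rose by 2.69 with IL-6 (SE 0.10, adjusted p = 3.38e-33), by 0.86 with HGF and by 3.08 with both. Pzp, a macroglobulin related to the Mug genes, rose by 1.25 with IL-6 where Mug1 fell. Fetub, of the fetuins, rose by 0.84 and Slpi, an inhibitor of leukocyte proteases, by 0.83 with IL-6, while both fell with HGF, by 0.57 at 4 h, within the split, and by 0.40 at 24 h. Ambp, the gene for the bikunin that the Itih chains join, did not pass with IL-6 (-0.08 at 2 h, SE 0.03, adjusted p = 0.0864) and fell by 0.34 with HGF. Itih5, the neighbour of Itih2 on chromosome 2, fell by 0.38 with IL-6, where Itih2 rose.

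**Figure D4:**
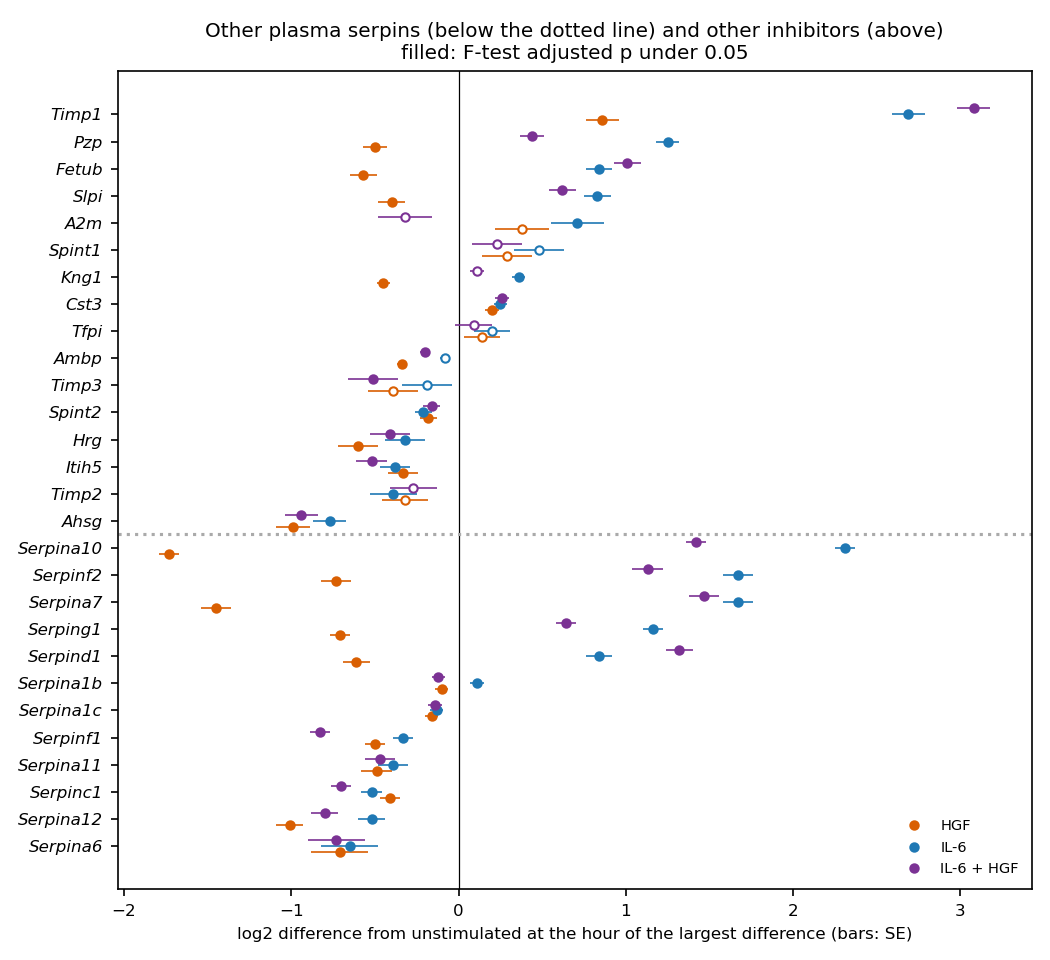
Log2 difference from unstimulated cells at the hour of each gene's largest difference (horizontal axis, bars for the SE) for 16 other inhibitors (above the dotted line) and 12 other plasma serpins (below it), with filled points where the F-test passed. Serpina10 spans -1.73 with HGF to 2.31 with IL-6, and all 12 serpins lie below 0 with HGF.

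The proteases that plasma inhibitors meet mostly fell. Of 16 liver-made proteases 4 rose, 10 fell and 2 did not pass with IL-6. With HGF 1 rose and 15 fell, and with both 3 rose and 13 fell. Of these falls 3 with IL-6, 1 with HGF and 2 with both were largest within the hours of the split. Over all genes 23.4% rose and 31.7% fell with IL-6, 29.8% and 32.8% with HGF, and 31.3% and 36.7% with both. The 4 proteases named next, those with the smallest adjusted p for IL-6, all fell. Masp1, a protease of the lectin pathway of complement, gave -1.15 with IL-6, -2.17 with HGF and -2.31 with both, and passed in each. F2, prothrombin, gave -0.33, -0.37 and -0.60, and F10, coagulation factor X, gave -0.74, -1.12 and -1.38. Hpn, the membrane protease hepsin, gave -0.68, -0.65 and -0.90, all at 4 h, within the split. Of 8 measured genes around hyaluronan, the acceptor of the Itih chains, 3 rose, 2 fell and 3 did not pass with IL-6. Cd44, the hyaluronan receptor, rose by 0.77 with IL-6, 1.22 with HGF and 1.10 with both. Hyal2, a hyaluronidase, fell in all 3 arms, by 0.39 with IL-6 at 2 h, 0.38 with HGF at 32 h and 0.54 with both at 4 h. Hmmr, another hyaluronan receptor, rose by 0.73 with IL-6 at 2 h and fell by 0.66 with HGF and 0.63 with both at 16 h. The differences of both genes at 2 and 4 h lie within the split. Tnfaip6, whose protein transfers the heavy chains to hyaluronan, rose by 0.59 with IL-6 (SE 0.15, adjusted p = 0.000469) and by 0.86 with both, and gave 0.54 with HGF (adjusted p = 0.0594). Its mean log2 intensity of 4.76 lay below all array medians.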

How the data were processed

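The authors deposited 1 table of log2 intensities for 45101 probe sets on 60 arrays, from biotin-labelled cRNA of total RNA, per the labels' protocols. The summary and scaling method was not given in the sources used here. Medians per array were 4.88 to 4.97, so the values were used as deposited. The labels speak of triplicates, while 2 arrays per group (4 at 0 h) were analysed. None of 1770 pairs of arrays were identical, and the number of arrays limits the precision. Gene names came from the platform's probe table: 34958 probe sets carry 1 symbol, 932 several and 9211 none.

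Genes were kept whose probe set exceeded the array's 40th percentile on 2 or more arrays. With 1 mean per group, limma 3.58.1 in R 4.3.3 (eBayes with trend, 31 residual degrees of freedom) fitted all 14513 genes and 2 shared probe sets together. Moderated F-tests over 7 hours were Benjamini-Hochberg adjusted over all rows at 0.05, and p-values at single hours within that hour. The fit was also run on simulated data with independent noise around the unstimulated means. Those data held no dap or bioB split and no shared animals, so that run could not test their part. All members are named, and of each list up to 4 genes with the smallest adjusted p for IL-6. Ambp, Itih5, A2m, Serpinc1, Serpinf1, and Serpina1b and Serpina1c on their own probe sets, were added after their values were seen. The members, lists and tests were chosen with earlier results of these data known. Promoters came from RefSeq (GRCm38.p6), and the array's own build is not stated, so no gene coordinates are given.

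Alternatives were quantile normalization, centring on array medians, a filter at the 60th percentile or none, the mean over probe sets, only the compared arms, a replicate block, no trend, robust estimation, ranges of hours, and leaving out each array. Replicate numbers did not pair the arrays: over 378 pairs of groups, the correlation of residuals for equal numbers ran from -0.27 to 0.25 (median -0.00038).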

Additional observations from a re-analysis of the deposited data

Results flagged for a closer look

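The effect of IL-6 differed with and without HGF, by the F-test of the interaction, for 4 of the 6 genes and for 1 shared probe set. For Serpina3n at 32 h the effect with HGF minus that without was -1.04 (SE 0.14). For Itih3 at 32 h it was -0.35 (SE 0.08). For Mug1 at 24 h it was 0.33 (SE 0.07), and for the probe set shared by Mug1, Mug2 and Mug-ps1 it was 0.24 at 2 h (SE 0.08), an hour at which the unstimulated arrays differ in the dap signal. For Itih2 at 8 h it was 0.24 (SE 0.06). No array of the 4 at 0 h stood apart from the others for any of these probe sets.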

How the results depend on the processing

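Directions were checked for the 6 genes and the 2 shared probe sets, each at the hour of its largest difference in a comparison. There they were the same under every alternative that covered the hour. Directions at other hours and those of the listed genes were not checked in this way. Restricting the F-tests to 0.5 to 4 h, a range chosen after the data were seen, lowered the genes passed to 2502 for IL-6 against HGF, 2423 for the combination against HGF, 3339 for the combination against IL-6, 3013 for the interaction and 2950 for culture. The members passed were then 2 for HGF against unstimulated cells, 2 for IL-6 against HGF, 2 for the combination against IL-6, 2 for the interaction and 3 for culture. Restricting to 8 to 32 h left 2862 genes for the interaction. Both restrictions test fewer hours. With the replicate block, which is no pairing here, IL-6 vs unstimulated passed 8047 genes and 5 members, Itih1 being lost. HGF vs unstimulated passed 9092 genes and 6 members, and the interaction 4914 genes and 4 members. The Itih1 call for IL-6 was lost under 7 alternatives and without any 1 of 38 arrays (adjusted p up to 0.213), and the Itih3 call for the combination against HGF under 4 and without 15 (up to 0.106). The Itih2 interaction was lost without the trend and without any 1 of 4 arrays of 8 h: unstimulated replicate 2, HGF replicate 1, IL-6 replicate 2 and combination replicate 1 (up to 0.0948). The shared Mug interaction was lost when arrays were centred and over 0.5 to 4 h. Itih4 passed the interaction only without unstimulated replicate 2 of 16 h, among the alternatives run. Leaving out 1 array at a time kept the Serpina3n difference with IL-6 between 1.66 and 1.99 and its interaction between -1.23 and -0.85.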

Other observations

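The genes of IL-6 signalling and liver transcription factors, 14 measured of 16 listed, gave 9 higher and 5 lower with IL-6 (all genes 23.4% and 31.7%). They gave 5 higher and 9 lower with HGF (29.8% and 32.8%), and 11 higher and 3 lower with both (31.3% and 36.7%). Of the rises, 3 with IL-6, 4 with HGF and 6 with both were largest up to 4 h, within the array split. So were 1 fall with IL-6 and 1 with HGF. Socs3, the feedback inhibitor of STAT3 signalling, rose by 5.42 at 0.5 h with IL-6 (SE 0.09, adjusted p = 3.71e-51), within the array split. Cebpd rose by 2.97 at 8 h (SE 0.08), Stat3 by 1.13 at 32 h (SE 0.07) and Cebpb by 0.70 at 16 h (SE 0.04).

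Of 4 measured intracellular inhibitors 1 rose, 2 fell and 1 did not pass with IL-6 (all genes 23.4% higher, 31.7% lower). Serpinb6a rose by 0.15 at 2 h, within the array split, and Serpinb8 fell by 0.61 at 16 h, while Cstb gave 0.09 at 8 h (adjusted p = 0.488). Serpinb9, a granzyme B inhibitor, fell by 0.35 with IL-6 at 4 h, within the split, by 0.80 with HGF and by 0.71 with both. A2m, the neighbour of Mug1 on chromosome 6 and a macroglobulin like it, had a mean log2 intensity of 4.67, below all array medians, and differed from unstimulated cells by 0.71 with IL-6 at 8 h (SE 0.16, adjusted p = 0.00132), where Mug1 gave 0.00 at that hour.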
